A study of Mus musculus with 20 samples.

Results

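The 37 interferon-induced genes described here are a named list out of 19807 genes in the deposited tables, and all 37 had reads in both skin layers. They are Stat2, Irf9, Irf7, Isg15, Usp18, Herc6, Rnf213, Trim30d, Dtx3l, Ifit1, Ifit2, Ifit3, Oas1a, Oas2, Oas3, Oasl1, Oasl2, Ddx58, Ifih1, Dhx58, Ddx60, Zbp1, Mx1, Mx2, Rsad2, Bst2, Cmpk2, Rtp4, Gbp2, Gbp3, Irgm1, Ifi44, Parp9, Parp14, Xaf1, Ifi35 and Apol9a. The genes were selected on measured CPM values of these libraries, but which contrast chose them is not recorded. The difference between Shh and WT wounds is taken here as the one used, so it is given for these genes without a p-value. The E14.5 libraries may also have had a part in the choice, so no count of calls below is independent support.

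Mouse skin was profiled as separate dermis and epidermis in 3 conditions. Shh wounds came from K14-CreER; LSL-Shh mice, in which Cre under the keratin 14 promoter of basal keratinocytes switches on a Sonic hedgehog (Shh) allele after tamoxifen (3 libraries per layer, from animals named Shh-9101, Shh-9231 and Shh-9233). E14.5 skin was unwounded embryonic skin (4 libraries per layer), and WT wounds came from control mice labelled wild type (3 libraries per layer, from animals named WT-9097, WT-9098 and WT-9229). Wounded mice of both genotypes were 4 to 5 weeks old, of mixed strain, and were sampled 2 days after the scab came off, and the study describes its controls as littermates given the same small wounds and tamoxifen. Wounding, age and the number of reads differ together between E14.5 skin and either wound, as does tamoxifen, which is not described for E14.5 skin. Shh wounds also carry the Shh transgene. The parts of these differences cannot be told apart. For its RNA-seq the study counts more wounds than mice, and more mice per condition than the 3 animals named here. Whether a library holds 1 wound or several is not stated, and p-values here measure only the spread between these libraries.

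Interferons are secreted proteins that warn cells of virus infection. Type I and type III interferons bind receptors that activate the kinases JAK1 and TYK2, which phosphorylate STAT2; together with IRF9 it acts in a complex that enters the nucleus and binds a DNA element called the interferon-stimulated response element in the promoters of target genes. The targets include the complex's own subunits, sensors of foreign RNA and DNA, enzymes that degrade or block viral RNA, and proteins that later damp the response. In skin, both keratinocytes and dermal cells carry this response, and a low level of it is present without infection.

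Of the 37 genes, 28 were found in a RefSeq table of mouse promoters (build GRCm38.p6) covering 250 bases before and 50 bases after the start of each gene. The core of the interferon-stimulated response element was searched as GAAANNGAAA on both strands, so that TTTCNNTTTC counts as the same element and neighbouring copies may overlap. It was present in the window of 16 of the 28 genes (57.1%), against 3.99% of all 27025 genes in the table. A match describes these letters only. The stretches below are those of 8 genes that carry a match and have levels or differences given below. They are shown so that the matches of different roles can be compared. Capitals mark the GAAANNGAAA or TTTCNNTTTC matches, and each stretch ends before the start of the gene and is written in the direction of transcription.
Isg15 (chr4:156200865-156200906, minus strand): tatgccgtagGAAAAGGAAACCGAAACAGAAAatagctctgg
Ifit1 (chr19:34640775-34640823, plus strand): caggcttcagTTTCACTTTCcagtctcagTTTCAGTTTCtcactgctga
Ifit3 (chr19:34583363-34583426, plus strand): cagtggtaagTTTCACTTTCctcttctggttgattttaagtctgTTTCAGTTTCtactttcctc
Oas1a (chr5:120907526-120907555, minus strand): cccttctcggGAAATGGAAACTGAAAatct
Ddx60 (chr8:61928024-61928086, plus strand): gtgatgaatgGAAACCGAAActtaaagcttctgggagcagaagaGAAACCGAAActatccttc
Bst2 (chr8:71537577-71537612, minus strand): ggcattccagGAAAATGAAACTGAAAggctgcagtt
Gbp3 (chr3:142559989-142560024, plus strand): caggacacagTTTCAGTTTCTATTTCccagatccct
Stat2 (chr10:128270266-128270295, plus strand): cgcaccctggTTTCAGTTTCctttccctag
Isg15 carried 3 overlapping matches that begin 78, 72 and 66 bases before its start, while Ifit1 and Ifit3 each carried 2 separate matches of the same letters, TTTCACTTTC followed by TTTCAGTTTC. No match lay in the windows of 12 of the genes, among them Irf7, Irf9 and Oasl2.

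Several of the genes are neighbours in the genome. By the deposited coordinates (build NCBIM37), 16 of the 37 lie within 100 kb of another, and the 37 are spread over 14 chromosomes. Ifit2, Ifit3 and Ifit1 follow each other on the plus strand of chromosome 19 (34625184 to 34724499), Oas2 and Oas3 are 3244 bases apart on the minus strand of chromosome 5, and Rsad2 and Cmpk2 lie 12751 bases apart on chromosome 12 on opposite strands. Dtx3l and Parp9 overlap by 682 bases on opposite strands of chromosome 16. Genes with close copies, such as those of the Ifit, Oas1, Oasl, Gbp, Trim30 and Apol9 families, are hard to tell apart with reads of 50 bases, so their single values are less certain than those of Stat2 or Isg15.

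All levels below are in CPM, the reads of a gene scaled to a library of 1000000 reads, and differences are between means of log2(CPM + 1), a scale that understates changes of genes with few reads. CPM is not divided by gene length, so levels are compared between libraries and not between genes. E14.5 libraries held 15663677 to 18745431 reads, Shh wound libraries 3920969 to 10810590 and WT wound libraries 1407498 to 7354990. Of the 12 wound libraries 4 had few genes with a read, from 11179 to 14178 (dermal Shh-9233, dermal WT-9229, epidermal WT-9097 and epidermal WT-9229), against 17055 to 18734 in the other 8. Mir5105 was the most abundant gene of WT-9229, with 177144 CPM in dermis and 62839 CPM in epidermis, which lowers the CPM of its other genes. In the other wound libraries a collagen or keratin gene was the most abundant. The Shh gene, switched on by the transgene, had 9.25, 7.35 and 10.7 CPM in Shh epidermis, against 0, 1.5 and 0 CPM in WT epidermis, so that every Shh library was above every WT library. Every layer had its own markers high: 6 keratinocyte genes summed to 13444 to 112319 CPM in the 10 epidermal libraries and to 233 to 3309 CPM in the 10 dermal ones. In dermis 7 fibroblast genes summed to 231441 to 359680 CPM in Shh wounds and 256591 to 304311 CPM in WT wounds. They summed to only 28557 to 30272 CPM in E14.5 dermis, and to at most 3500 CPM in any epidermal library. Summed leukocyte markers (9 genes) overlapped between the wounds, with 470 to 986 CPM in Shh dermis, against 364 to 1154 CPM in WT dermis, and 130 to 176 CPM in Shh epidermis, against 135 to 215 CPM in WT epidermis. So did the sum of 5 markers of plasmacytoid dendritic cells, which are strong producers of type I interferon, in epidermis (21.9 to 24.5 CPM in Shh wounds, against 7.88 to 23.0 CPM in WT wounds) and in dermis (0 to 16.4 CPM in Shh wounds, against 3.73 to 27.0 CPM in WT wounds). In epidermis this overlap came through WT-9229 alone, a library with few genes. There 2 of the 5 had every Shh library above every WT library (14.3% of all genes did) and 0 below. Their median difference was 0.62, and their part in the results was not tested. Markers of dermal fibroblasts (7 genes) summed to 1145 to 3500 CPM in Shh epidermis, against 647 to 3273 CPM in WT epidermis; 4 of the 7 had every Shh library above every WT library and 0 below, with a median difference of 1.19, and their part in the results was not tested. Endothelial markers (4 genes) moved with the dermal contrast, with 221 to 349 CPM in Shh dermis, against 96.9 to 182 CPM in WT dermis, and their part in the results was not tested.

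In epidermis the interferon-induced genes stood higher in Shh wounds than in WT wounds almost without exception. For 36 of the 37 genes every Shh library lay above every WT library, a separation that 14.3% of all 19252 genes with a read showed in that direction. Since the list is taken to rest on this contrast, the count describes the genes and tests nothing. The differences ran from 0.95 (Ifit3) to 5.05 (Ifit1), with a median of 2.38, where the median of all genes was 0.21. Over all genes limma called 0 of the 19252 at an adjusted p of 0.05 (0% of genes, with 1846 at an unadjusted p under 0.05), whereas edgeR called 6, DESeq2 called 64 and limma with all 3 conditions of the layer in the fit called 148 of 19785 (147 of them higher in Shh wounds). In dermis every Shh library was above every WT library for 19 of the 37, against 7.74% of all 19430 genes, none lay below, and the median difference was 1.04 (all genes 0.13).

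**Figure D1:**
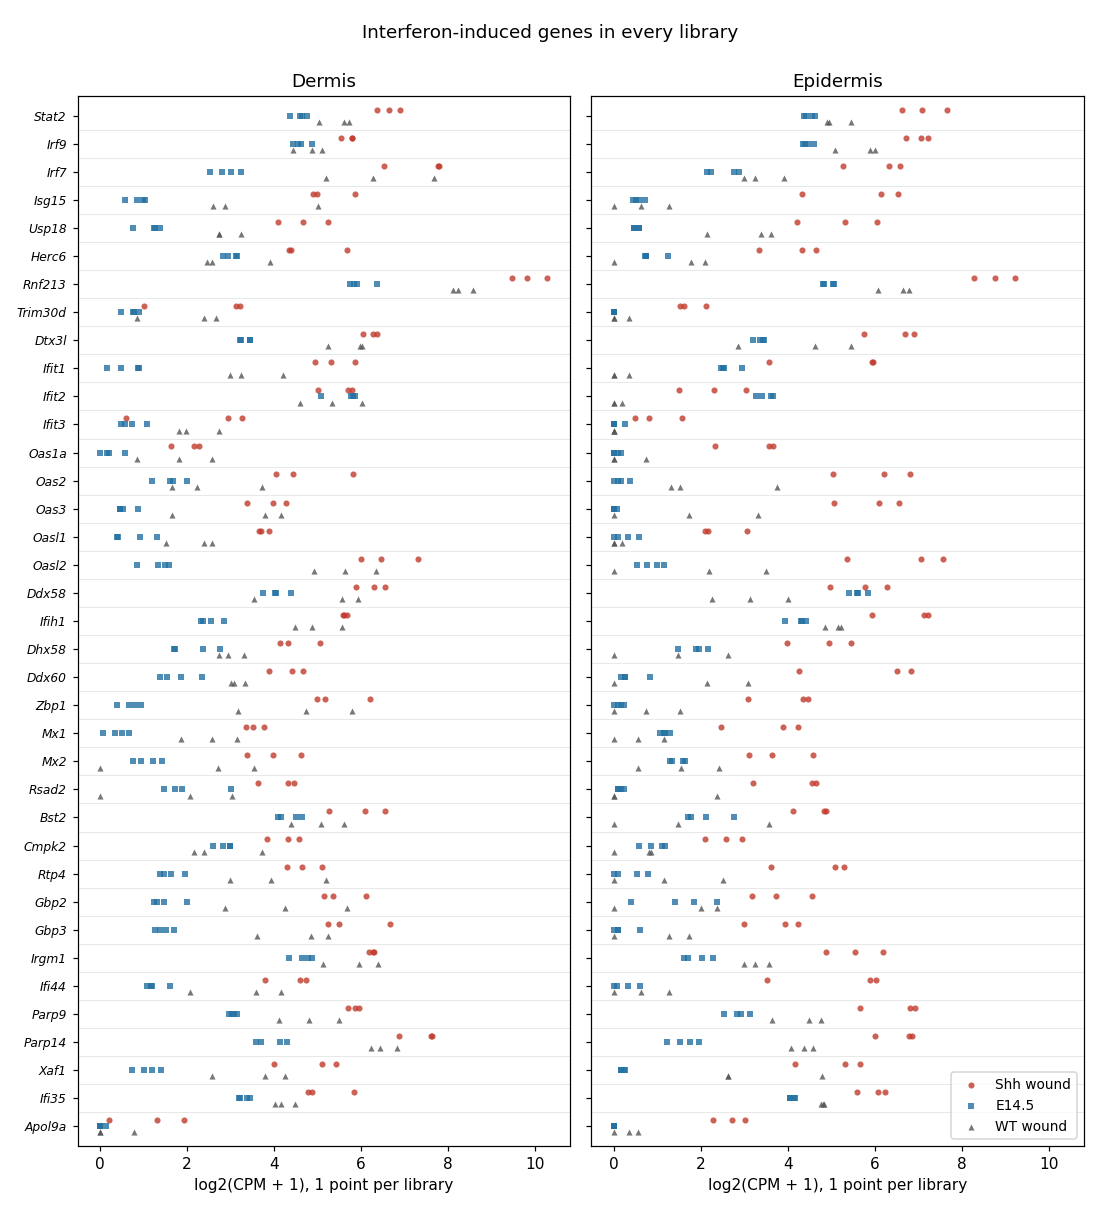
Levels of the 37 genes as log2(CPM + 1) in dermis (left) and epidermis (right), with 1 point per library of Shh wounds (circles), E14.5 skin (squares) and WT wounds (triangles). In epidermis the circles lie to the right of the triangles for 36 genes, and in dermis they do so for 19.

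The transcription factors of the pathway were among the genes that separated. Stat2, the subunit of the complex that is specific to type I and type III interferons, had 135, 98.4 and 202 CPM in the epidermis of Shh-9101, Shh-9231 and Shh-9233, against 30.0, 28.7 and 43.1 CPM in WT-9097, WT-9098 and WT-9229. Irf9, its DNA-binding subunit, had 149, 104 and 133 CPM in Shh epidermis, against 63.2, 58.1 and 32.8 CPM in WT epidermis. Both were also separated in dermis. There Stat2 had 81.9, 98.8 and 119 CPM in Shh wounds, against 47.9, 32 and 51.9 CPM in WT wounds. Irf7, which amplifies production of type I interferon, had 95.2, 37.8 and 79.7 CPM in Shh epidermis, against 6.94, 8.43 and 14.1 CPM in WT epidermis. In dermis its groups overlapped, with 218, 91.3 and 220 CPM in Shh wounds, against 76.9, 36.0 and 203 CPM in WT wounds, since Shh-9231 lay below WT-9229.

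Isg15 and Usp18 belong to the system that tags proteins with the ubiquitin-like protein ISG15. Isg15, the tag itself, had 92.2, 19.0 and 69.2 CPM in Shh epidermis, against 0, 0.544 and 1.41 CPM in WT epidermis, a difference of 5.03. In dermis it had 31.0, 28.9 and 56.9 CPM in Shh wounds, against 31.1, 5.06 and 6.39 CPM in WT wounds. The dermal groups thus overlapped through WT-9097 alone. Usp18 removes the tag and limits signalling from the type I receptor; it had 38.9, 17.7 and 64.9 CPM in Shh epidermis, against 11.3, 3.40 and 9.37 CPM in WT epidermis, and 16.2, 24.6 and 37.0 CPM in Shh dermis, against 5.72, 8.53 and 5.68 CPM in WT dermis. Rnf213, a large ubiquitin ligase, was separated in both layers too. Its dermal levels were 707, 903 and 1247 CPM in Shh wounds, against 382, 301 and 276 CPM in WT wounds, and its epidermal levels were 434, 310 and 599 CPM in Shh wounds, against 109, 66.5 and 99.8 CPM in WT wounds. Herc6, the mouse ligase that attaches ISG15, and Dtx3l, a ligase that pairs with PARP9, were also separated in both layers (epidermal differences 2.81 and 2.14, dermal 1.83 and 0.48).

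The IFIT proteins bind viral RNA and block its translation. Ifit1 had 61.3, 10.9 and 60.7 CPM in Shh epidermis, against 0, 0.272 and 0 CPM in WT epidermis, the largest difference of the 37 (5.05). Its dermal levels were 29.8, 39.0 and 56.9 CPM in Shh wounds, against 17.5, 6.93 and 8.53 CPM in WT wounds, again without overlap. Ifit3 had few reads everywhere: 0.740, 0.408 and 1.95 CPM in Shh epidermis, against 0 in each WT library, which puts it at least 5.11-fold higher in Shh wounds when 3 reads over the WT group are taken as the floor. In dermis its libraries overlapped (6.72, 8.62 and 0.510 CPM in Shh wounds, against 2.50, 2.93 and 5.68 CPM in WT wounds). Ifit2 likewise was separated in epidermis (difference 2.22) and overlapped in dermis (0.18).

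Oligoadenylate synthetases make a small messenger that activates the RNA-degrading enzyme RNase L, while the OASL proteins lack or have little of that activity. Oas2 had 73.4, 32.2 and 111 CPM in Shh epidermis, against 12.6, 1.5 and 1.87 CPM in WT epidermis. In dermis it had 15.6, 20.6 and 55.6 CPM in Shh wounds, against 12.2, 3.73 and 2.13 CPM in WT wounds. Both layers were separated for Oas2, and the dermal difference (2.23) was second among the 37 to that of Rsad2 (2.45). Oasl2 had 133, 39.9 and 189 CPM in Shh epidermis, against 0, 3.54 and 10.3 CPM in WT epidermis. Its dermal groups overlapped, with 62.9, 86.7 and 159 CPM in Shh wounds, against 49.0, 29.6 and 81.0 CPM in WT wounds. Oas3 and Oas1a were separated in epidermis (differences 4.23 and 2.93) but overlapped in dermis (0.69 and 0.28), and Oasl1 was separated in both layers (2.38 in epidermis and 1.59 in dermis).

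The sensors of foreign nucleic acid in the list are the RNA helicases Ddx58 (RIG-I), Ifih1 (MDA5) and Dhx58 (LGP2), the related helicase Ddx60, and Zbp1, which binds nucleic acid in the Z form and can start cell death. Ifih1 had 149, 60.7 and 139 CPM in Shh epidermis, against 34.5, 27.9 and 36.5 CPM in WT epidermis, and 50.5, 47.1 and 48.2 CPM in Shh dermis, against 28.6, 21.6 and 46.2 CPM in WT dermis. It was separated in both layers, in dermis by a small margin over WT-9229. Ddx58 had 54.1, 30.2 and 76.7 CPM in Shh epidermis, against 3.75, 7.75 and 15 CPM in WT epidermis. In dermis 58.4 CPM in Shh-9233 fell just short of the 60.1 CPM in WT-9097, and the other values were 77.3 and 92.7 CPM in Shh wounds, against 46.1 and 10.7 CPM in WT wounds. Zbp1 had 19.5, 7.55 and 20.9 CPM in Shh epidermis, against 0, 0.680 and 1.87 CPM in WT epidermis. Its dermal levels overlapped (35.2, 30.7 and 72.9 CPM in Shh wounds, against 25.7, 8.0 and 54.7 CPM in WT wounds).

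Among genes that restrict viruses directly, Mx1, a GTPase that traps viral ribonucleoproteins, had 13.9, 4.49 and 17.7 CPM in Shh epidermis, against 0, 1.22 and 0.468 CPM in WT epidermis. Its dermal levels, 9.34, 12.7 and 10.5 CPM in Shh wounds, against 7.87, 2.67 and 4.97 CPM in WT wounds, were separated as well. Rsad2 (viperin) makes an altered nucleotide that stops viral RNA synthesis, and Cmpk2 next to it supplies the precursor. Rsad2 had 24.1, 8.17 and 22.6 CPM in Shh epidermis, against 0, 0 and 4.22 CPM in WT epidermis, and 19.2, 21.0 and 11.5 CPM in Shh dermis, against 7.15, 3.20 and 0 CPM in WT dermis. Cmpk2 was separated in both layers too (differences 1.98 in epidermis and 1.5 in dermis). Bst2 (tetherin) holds budding virus at the cell surface. It had 28.3, 16.3 and 27.6 CPM in Shh epidermis, against 0, 1.77 and 10.8 CPM in WT epidermis, and overlapping levels of 67.0, 37.6 and 93.3 CPM in Shh dermis, against 32.9, 20.0 and 47.6 CPM in WT dermis.

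The interferon-inducible GTPases disrupt the vacuoles of intracellular pathogens. Gbp2 had 22.7, 12.4 and 8.09 CPM in Shh epidermis, against 0, 2.99 and 4.22 CPM in WT epidermis, and overlapping levels of 68.3, 40.0 and 34.4 CPM in Shh dermis, against 50.4, 18.1 and 6.39 CPM in WT dermis. Gbp3 had 17.8, 6.94 and 14.2 CPM in Shh epidermis, against 0, 2.31 and 1.41 CPM in WT epidermis, and 44.2, 37.1 and 100.2 CPM in Shh dermis, against 36.8, 11.2 and 27.7 CPM in WT dermis. Only the margin over WT-9097 was small for Gbp3 in dermis. Irgm1 had 72.2, 28.5 and 45.6 CPM in Shh epidermis, against 10.9, 8.57 and 7.03 CPM in WT epidermis, while 77.3, 72.1 and 77.0 CPM in Shh dermis overlapped with 60.8, 34.1 and 83.1 CPM in WT dermis. Parp14, which attaches ADP-ribose to proteins, had 116, 63.0 and 109.5 CPM in Shh epidermis, against 23.1, 19.7 and 15.9 CPM in WT epidermis, and 198, 196 and 117 CPM in Shh dermis, against 113, 74.1 and 86.0 CPM in WT dermis. The exception among the 37 in epidermis was Xaf1, a factor that favours cell death: it had 39.1, 17.0 and 49.8 CPM in Shh wounds, against 26.8, 5.17 and 5.15 CPM in WT wounds, so that WT-9097 lay above Shh-9231. Xaf1 overlapped in dermis as well, with 15.1, 33.6 and 42.3 CPM in Shh wounds, against 18.2, 12.8 and 4.97 CPM in WT wounds. Ifi35, which was close to level among WT libraries, had 66.2, 47.3 and 74.9 CPM in Shh epidermis, against 27.6, 26.2 and 27.2 CPM in WT epidermis. It was separated in dermis too, with 26.7, 28.2 and 56.4 CPM in Shh wounds, against 15.4, 16.8 and 21.3 CPM in WT wounds.

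**Figure D2:**
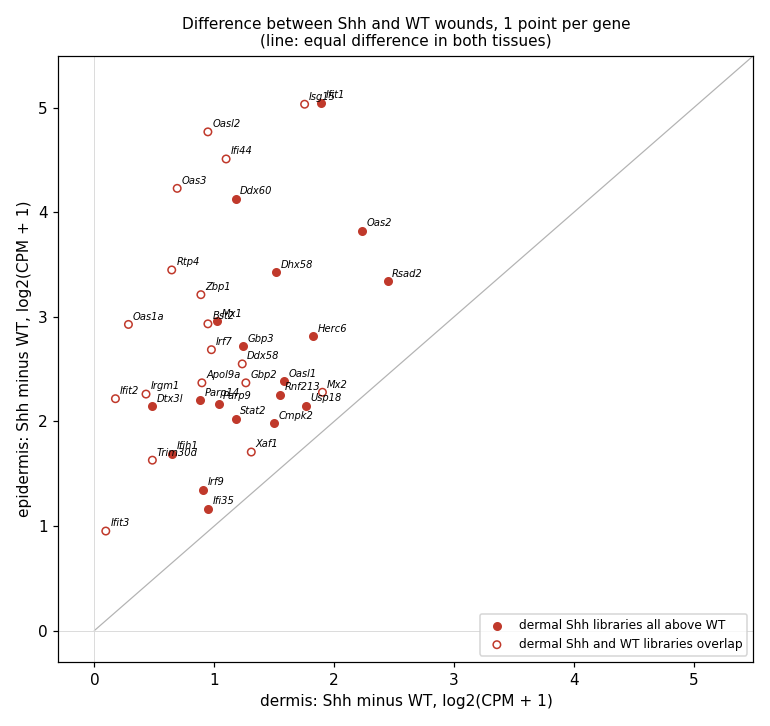
Difference between Shh and WT wounds in mean log2(CPM + 1), dermis on the horizontal and epidermis on the vertical axis, 1 point per gene; filled points are genes whose dermal Shh libraries all lie above the WT libraries. All 37 points lie above the line of equal difference, from Ifit3 (0.09 in dermis, 0.95 in epidermis) to Ifit1 (1.89 in dermis, 5.05 in epidermis).

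The libraries of a group differed among themselves. In epidermis Shh-9231 was the lowest of the 3 Shh libraries for 35 of the 37 genes, and its mean over the 37 was 4.09 on the log2(CPM + 1) scale, against 5.21 in Shh-9101 and 5.29 in Shh-9233. The dermis of the same animal did not stand low: there the means were 4.93, 5.00 and 5.18 in Shh-9101, Shh-9231 and Shh-9233. Among WT libraries 21 of the 37 genes had no read in epidermal WT-9097, a library with few genes, whereas 2 of them had none in WT-9098 and 7 had none in WT-9229, although 1 read in WT-9097 stands for less CPM than in WT-9229. In WT dermis WT-9097 was the highest for 22 genes and WT-9098 the lowest for 21. Without the libraries with few genes, in a comparison of Shh epidermis with WT-9098 alone, 37 of the 37 genes had all Shh libraries higher (27.7% of all genes did), with a median difference of 2.37. In dermis the same step left 2 libraries on each side and 30 genes separated (28.1% of all genes). In bulk tissue fewer cells of a type and less RNA per cell cannot be told apart.

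**Figure D3:**
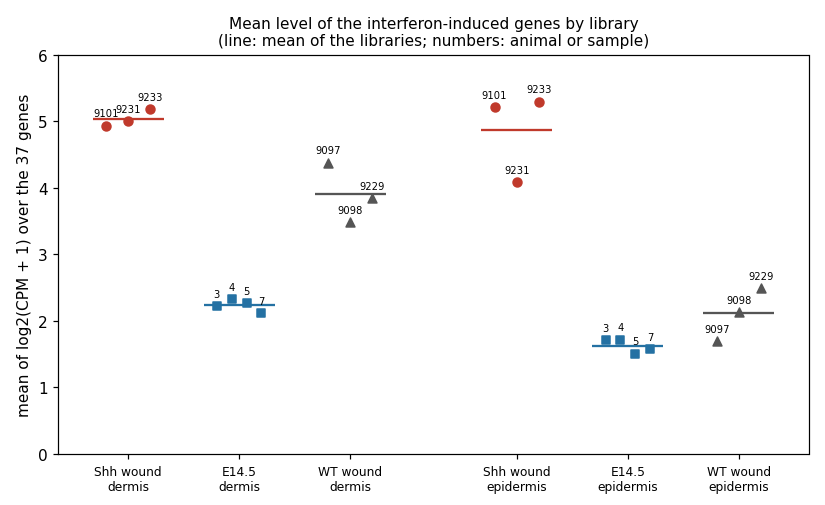
Mean of log2(CPM + 1) over the 37 genes in each library, labelled with the animal or sample number; horizontal lines are means of the libraries in a group. Shh dermis spans 4.93 to 5.18 and Shh epidermis 4.09 to 5.29, E14.5 skin lies between 1.51 and 2.33, and WT wounds lie at 3.49 to 4.38 in dermis but at 1.70 to 2.50 in epidermis.

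Other genes of the pathway were set beside these. They come from lists grouped by function, which were chosen with earlier results of these data known. Of the interferon genes searched only Ifnk and Ifng are in the tables. Ifnk, the type I interferon of keratinocytes, had 1.94, 2.25 and 2.65 CPM in Shh epidermis, against 0, 3.54 and 0 CPM in WT epidermis, and was at or under 0.358 CPM in every wound library of dermis. Ifng, the type II interferon made by lymphocytes, had 2.96, 2.25 and 1.95 CPM in Shh epidermis, against 0, 1.77 and 0.937 CPM in WT epidermis. Few reads lie behind these values. The subunits of the type I receptor did not separate Shh from WT dermis: Ifnar1 had 89.3, 86.5 and 61.5 CPM in Shh dermis, against 59.0, 62.1 and 48.3 CPM in WT dermis. In epidermis Ifnar1 overlapped, with 43.1, 43.3 and 35.7 CPM in Shh wounds, against 70.5, 36.3 and 37.5 CPM in WT wounds. Ifnar2, the other subunit, was separated there, with 9.99, 9.80 and 8.93 CPM in Shh epidermis, against 0, 4.49 and 7.49 CPM in WT epidermis (difference 1.55). Ifngr2 of the type II receptor was separated as well, with 58.7, 78.6 and 63.6 CPM in Shh epidermis, against 14.3, 52.3 and 45.9 CPM in WT epidermis (difference 1.0).

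Of other interferon-induced genes outside the 37 (52 in the tables, 51 with a read in wound epidermis), 30 had every Shh library above every WT library in epidermis, with a median difference of 1.14. In dermis 11 of the 52 did (median 0.42). Among 28 genes of interferon gamma signalling and antigen presentation the counts were 14 in epidermis (median 0.75) and 5 in dermis (median 0.25), to be read against the same 14.3% and 7.74% of all genes. Since both lists were chosen with earlier results known, these counts are not independent support.

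Set against WT wounds, E14.5 dermis had lower levels of most of the 37 genes. By limma, with p-values adjusted over all 19732 genes by Benjamini-Hochberg, 26 of the 37 were called lower in E14.5 dermis and 0 higher, while 6.63% of all genes were called lower and 49.4% higher. The median difference was -1.51 among the 37, where the median of all genes was 0.78. The WT libraries also enter the contrast with Shh wounds, so these counts are not independent of it. Markers of other cell types moved between these groups. Of 9 leukocyte markers, 8 were called lower in E14.5 dermis (median -1.97). They summed to 145 to 174 CPM in E14.5 dermis, against 364 to 1154 CPM in WT dermis. In E14.5 dermis 5 of 6 keratinocyte markers were called lower and 4 of 4 endothelial markers higher. Of 7 dermal fibroblast markers, 3 were called lower and 1 higher. The part of these markers in the result was not tested. Trim30d was called in 7 of 15 alternative fits and Ifit3 and Ifi35 in 14, while the other 23 calls held in all 15. The fall was largest for Oasl2, with 1.81, 1.99, 0.804 and 1.54 CPM in E14.5 dermis, against 49.0, 29.6 and 81.0 CPM in WT dermis, a difference of -4.33 (SE 0.41, adjusted p = 9.2e-05 by limma). Zbp1 had 0.309 to 0.938 CPM in E14.5 dermis, against 8.0 to 54.7 CPM in WT dermis (-3.87, SE 0.58, adjusted p = 0.00081), and Irf7 had 4.78 to 8.44 CPM in E14.5 dermis, against 36.0 to 203 CPM in WT dermis (-3.49, SE 0.51, adjusted p = 0.00070). Gbp3 (-3.10), Ifit1 (-2.88), Isg15 (-2.63) and Rnf213 (-2.34) were called lower as well. Stat2 was lower by less, with 24, 26.2, 19.8 and 23.1 CPM in E14.5 dermis, against 47.9, 32 and 51.9 CPM in WT dermis (-0.86, SE 0.22, adjusted p = 0.010).

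The 11 genes that were not called in dermis were Irf9, Herc6, Ifit2, Oas2, Ddx58, Dhx58, Mx2, Rsad2, Bst2, Cmpk2 and Apol9a. Irf9 had 20.9, 28.2, 23.8 and 22.6 CPM in E14.5 dermis, within the 33.3, 28.5 and 20.6 CPM of WT dermis (-0.18, SE 0.23, adjusted p = 0.52 by limma). Ifit2 had 57.1, 53.7, 55.1 and 32.9 CPM in E14.5 dermis, against 64.0, 39.7 and 23.4 CPM in WT dermis (0.31, SE 0.34, adjusted p = 0.46). Bst2 had 21.9, 16.8, 16 and 24.1 CPM in E14.5 dermis, against 32.9, 20.0 and 47.6 CPM in WT dermis. The embryonic dermis thus held Ifit2 at the level of a wound while its neighbours Ifit1 and Ifit3 were at 0.124 to 0.854 CPM and at 0.399 to 1.12 CPM in E14.5 dermis.

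In epidermis the picture was more divided. By limma, 14 of the 37 were called between E14.5 and WT epidermis, 11 of them lower in E14.5 skin and 3 higher, beside 11.4% of all 19751 genes lower and 47.7% higher. Lower were Stat2, Irf9, Usp18, Rnf213, Oas2, Ifih1, Irgm1, Parp9, Parp14, Xaf1 and Ifi35. The call of Stat2 held in 10 of 15 alternative fits (adjusted p up to 0.082) and that of Ifih1 in 14. Leukocyte markers moved the same way: 5 of 9 were called lower in E14.5 epidermis (median -2.38), with sums of 12.1 to 24.5 CPM in E14.5 epidermis, against 135 to 215 CPM in WT epidermis. Other markers moved too, with 4 of 6 keratinocyte markers called lower and 1 higher, and 3 of 4 endothelial markers higher. Of 7 dermal fibroblast markers, 3 were called higher in E14.5 epidermis and 0 lower (median 1.54). The part of these markers in the result was not tested. Parp14 had 2.36, 1.88, 1.35 and 2.88 CPM in E14.5 epidermis, against 23.1, 19.7 and 15.9 CPM in WT epidermis (-2.73, SE 0.34, adjusted p = 0.00031). Xaf1 had 0.121 to 0.188 CPM in E14.5 epidermis, against 5.15 to 26.8 CPM in WT epidermis (-3.14, SE 0.54, adjusted p = 0.0016). Usp18 had 0.376 to 0.490 CPM in E14.5 epidermis, against 3.40 to 11.3 CPM in WT epidermis (-2.52, SE 0.40, adjusted p = 0.0010). For many other members both groups were near 0: Isg15 had 0.363 to 0.638 CPM in E14.5 epidermis, against 0 to 1.41 CPM in WT epidermis (adjusted p = 0.85).

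Higher in E14.5 epidermis were Ifit1, Ifit2 and Ddx58. Ifit1 had 4.72, 4.78, 4.53 and 6.70 CPM in E14.5 epidermis, against 0, 0.272 and 0 CPM in WT epidermis (2.50, SE 0.28, adjusted p = 0.00019 by limma). Ifit2 had 11.6, 11.3, 8.63 and 9.64 CPM in E14.5 epidermis, against 0, 0.136 and 0 CPM in WT epidermis (3.43, SE 0.31, adjusted p = 6.5e-05). Ddx58, the RNA helicase RIG-I, had 41.4, 56.8, 47.4 and 47.8 CPM in E14.5 epidermis, against 3.75, 7.75 and 15 CPM in WT epidermis (2.49, SE 0.38, adjusted p = 0.00087). All 3 groups of libraries are thus apart for Ifit1 in epidermis, with Shh wounds above E14.5 skin and WT wounds below it. The WT library with few genes and 21 of the 37 at 0 weighs on the number of calls: without WT-9097 the fit called 25 of the 37, 22 of them lower in E14.5 epidermis (64.2% of all genes were called in either direction, against 59.1% with every library), and without both WT libraries with few genes it called 23, 20 of them lower (64.3% of all genes were called).

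**Figure D4:**
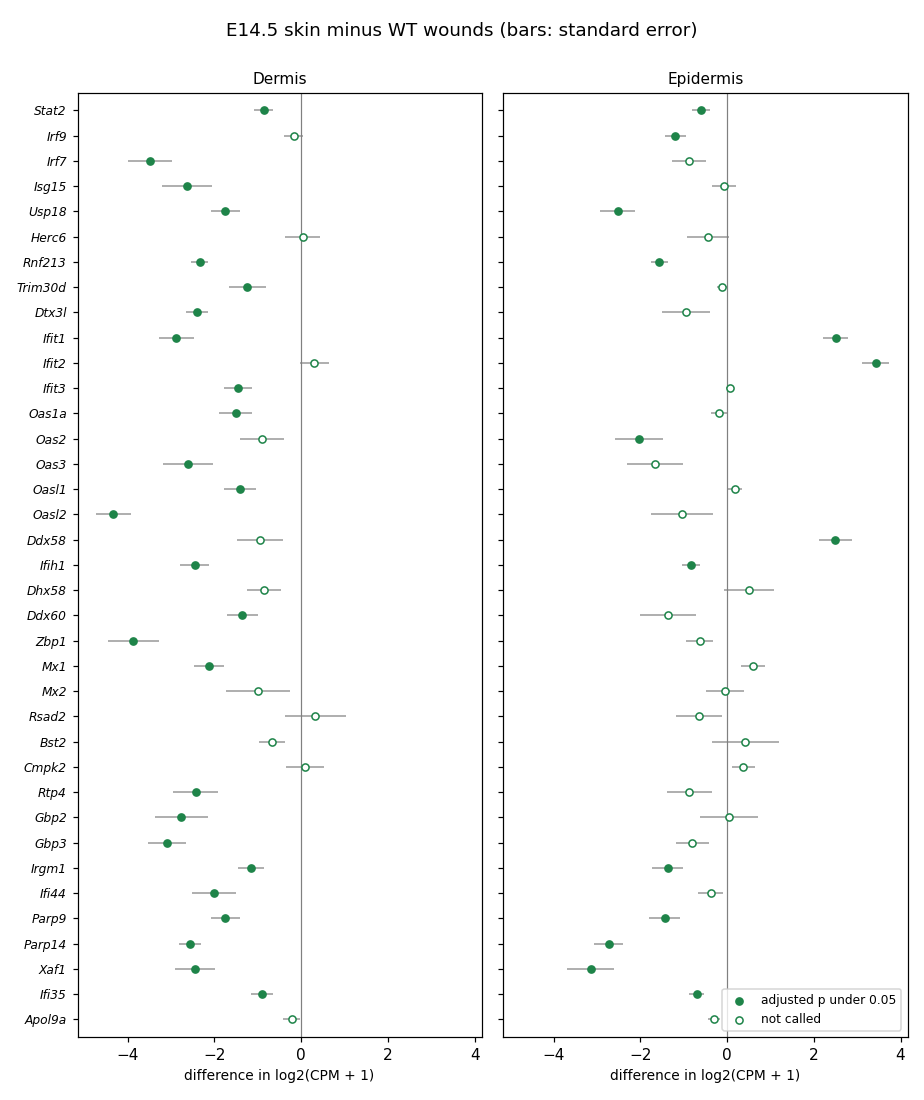
Difference between E14.5 skin and WT wounds in mean log2(CPM + 1) for the 37 genes in dermis (left) and epidermis (right); bars are standard errors and filled points are genes with an adjusted p under 0.05 by limma. In dermis the 26 filled points lie left of 0, from -4.33 to -0.86; in epidermis 11 lie left of 0 and Ifit1, Ifit2 and Ddx58 lie right of it.

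Shh wounds were above E14.5 skin for nearly the whole list. In dermis 35 of the 37 were called higher in Shh wounds by limma, with 8.08% of all 19734 genes called higher and 42.5% lower, and a median difference of 2.91 (all genes -0.61), and Ifit2 and Ifit3 were not called. Of these dermal calls, Trim30d held in 9 of 15 alternative fits and Apol9a in 9 of 14, and the others held in all. In epidermis 35 were called higher (19.6% of all 19775 genes were higher and 51.7% lower), Ddx58 was not (0.06, SE 0.25, adjusted p = 0.84 by limma), and Ifit2 was lower in Shh wounds. Ddx58 was called higher in Shh epidermis by edgeR (0.76, adjusted p = 0.021), by DESeq2 (0.84, adjusted p = 0.0056) and by limma without Shh-9231 (0.42, adjusted p = 0.049). The Shh libraries also enter the contrast with WT wounds. Leukocyte markers moved the same way, with 7 of 9 called higher in Shh dermis (median 1.85) and 9 of 9 in Shh epidermis (median 1.60). Other markers moved too. Of 6 keratinocyte markers, 5 were called higher in Shh dermis (median 2.42), and in Shh epidermis 5 were higher and 1 lower. Of 4 endothelial markers, 4 were called lower in Shh dermis and 3 in Shh epidermis. Of 7 dermal fibroblast markers, 3 were called higher in Shh dermis and 3 lower in Shh epidermis. The part of these markers in the result was not tested. Oas3 had 67.8, 32.7 and 92.5 CPM in Shh epidermis, against 0 to 0.0606 CPM in E14.5 epidermis (5.89, SE 0.30, adjusted p = 4.0e-08), the largest of these differences. Trim30d and Apol9a had no read in the 4 embryonic epidermal libraries, which makes them at least 51.9-fold and at least 118-fold higher in Shh epidermis with a floor of 3 reads over the group. With those 2 genes at their bounds the epidermal median of the 37 was 3.52, against 3.11 as fitted. Ddx58 ranged from 30.2 to 76.7 CPM in Shh epidermis and from 41.4 to 56.8 CPM in E14.5 epidermis, so that the embryonic libraries lay inside the range of the Shh wounds. Ifit2 had 7.22, 1.84 and 3.91 CPM in Shh epidermis, against 8.63 to 11.6 CPM in E14.5 epidermis (-1.21, SE 0.31, adjusted p = 0.0047), a call that was lost with TMM scaling, with edgeR and with DESeq2.

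The layers were compared within each condition. In Shh wounds 11 of the 37 were called between dermis and epidermis by limma, 8 higher in dermis (13.4% of all 19685 genes were) and 3 lower (19.6%). The median difference of the 37 was 0.01 (all genes -0.22), and 16 of them had a higher mean CPM in Shh dermis. Higher in Shh dermis were Rnf213, Ifit2, Oasl1, Zbp1, Bst2, Cmpk2, Gbp2 and Gbp3, and lower were Irf9, Oas3 and Ifih1. Over 14 alternative fits the calls of Irf9, Ifit2, Oas3, Cmpk2 and Gbp3 all held, while Gbp2 was called in 12, Rnf213 and Bst2 in 11, Zbp1 and Oasl1 in 9 and Ifih1 in 8. Of the leukocyte markers, 6 of 9 were called higher in Shh dermis and 1 lower (median 1.73), with sums of 470 to 986 CPM in Shh dermis, against 130 to 176 CPM in Shh epidermis. Their part in the result was not tested. Gbp3 had 44.2, 37.1 and 100.2 CPM in Shh dermis, against 17.8, 6.94 and 14.2 CPM in Shh epidermis (2.09, SE 0.46, adjusted p = 0.0093). Irf9 went the other way, with 54.7, 45.7 and 54.3 CPM in Shh dermis, against 149, 104 and 133 CPM in Shh epidermis (-1.29, SE 0.20, adjusted p = 0.0017). Oas3 had 14.9, 9.50 and 18.4 CPM in Shh dermis, against 67.8, 32.7 and 92.5 CPM in Shh epidermis (-2.02, SE 0.41, adjusted p = 0.0067). With the animal as a block the fit called 13, beside 31.8% of all genes. Irf7 (1.30, adjusted p = 0.0023 by limma), Oas2 and Ifi35 were called in addition and Oasl1 no longer (adjusted p = 0.067). Without dermal Shh-9233, which has few genes, 18 of the 37 were called, beside 47.5% of all genes, and without epidermal Shh-9233 7 were, beside 23.7% of all genes (33.0% with every library). Without epidermal Shh-9231, the lowest Shh epidermal library for 35 of the 37, 9 were called, beside 24.2% of all genes. Of these 9, 3 were higher in dermis and 6 lower, so the lean of the calls toward dermis did not hold.

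In WT wounds 16 of the 37 were called higher in dermis by limma and 0 lower, beside 10.5% of all 19354 genes higher and 13.4% lower. They were Irf7, Isg15, Rnf213, Ifit1, Ifit2, Ifit3, Oasl1, Oasl2, Zbp1, Bst2, Rtp4, Gbp2, Gbp3, Irgm1, Ifi44 and Parp14. Irf7 had 76.9, 36.0 and 203 CPM in WT dermis, against 6.94, 8.43 and 14.1 CPM in WT epidermis (3.01, SE 0.57, adjusted p = 0.0025). Ifit2 had 64.0, 39.7 and 23.4 CPM in WT dermis, against 0, 0.136 and 0 CPM in WT epidermis (5.27, SE 0.74, adjusted p = 0.00032). With the animal as a block 13 were called, beside 23.2% of all genes. Isg15, Gbp2 and Ifi44 were lost (adjusted p = 0.069, 0.082 and 0.065 by limma). Each of the 16 calls was lost in at least 1 of 14 alternative fits, from 13 fits kept for Irf7 and Ifit1 down to 6 for Gbp2 and Ifi44. Of the epidermal WT libraries, 2 of the 3 have few genes. Leaving out dermal WT-9097 gave 9 calls (19.5% of all genes, against 23.9% with every library) and leaving out epidermal WT-9098 gave 10 (18.0% of all genes); with no library of few genes, 2 dermal libraries and 1 epidermal one remained and limma called 0 of 19247 genes (6511 at an unadjusted p under 0.05; no other tool was run on these libraries). Leukocyte markers moved with this contrast: their sum was 364 to 1154 CPM in WT dermis and 135 to 215 CPM in WT epidermis. Their part in the result was not tested.

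The E14.5 libraries do not enter the contrast between Shh and WT wounds, though whether they had a part in choosing the genes is not recorded. In E14.5 skin 24 of the 37 were called between the layers by limma, 19 higher in dermis and 5 lower, beside 31.9% of all 19712 genes higher and 35.6% lower. The calls of 15 genes held in 15 alternative fits, and those of the other 9 in 14, as a minimum mean of 1 CPM left these 9 out of the fit. Irgm1 had 19.4, 28.5, 26.4 and 24 CPM in E14.5 dermis, against 3.83, 3.09, 2.08 and 2.25 CPM in E14.5 epidermis (2.76, SE 0.18, adjusted p = 4.0e-07), the largest of these differences. Bst2 (2.26), Parp14 (2.32), Herc6 (2.15) and Ifit2 (2.14) were likewise higher in embryonic dermis. The genes lower in dermis were Ifit1, Ddx58, Ifih1, Mx1 and Ifi35. Ifit1 had 0.854, 0.828, 0.124 and 0.399 CPM in E14.5 dermis, against 4.53 to 6.70 CPM in E14.5 epidermis (-2.01, SE 0.20, adjusted p = 6.6e-06). The RNA helicases Ddx58 and Ifih1 were lower by 1.55 and 1.72 on the log2 scale in dermis: Ifih1 had 4.91, 4.19, 6.19 and 4.04 CPM in E14.5 dermis, against 14.3 to 20.4 CPM in E14.5 epidermis, and Ddx58 had 12.6 to 20.1 CPM in E14.5 dermis, against 41.4 to 56.8 CPM in E14.5 epidermis. Leukocyte markers summed to 145 to 174 CPM in E14.5 dermis and to 12.1 to 24.5 CPM in E14.5 epidermis; their part in the result was not tested.

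**Figure D5:**
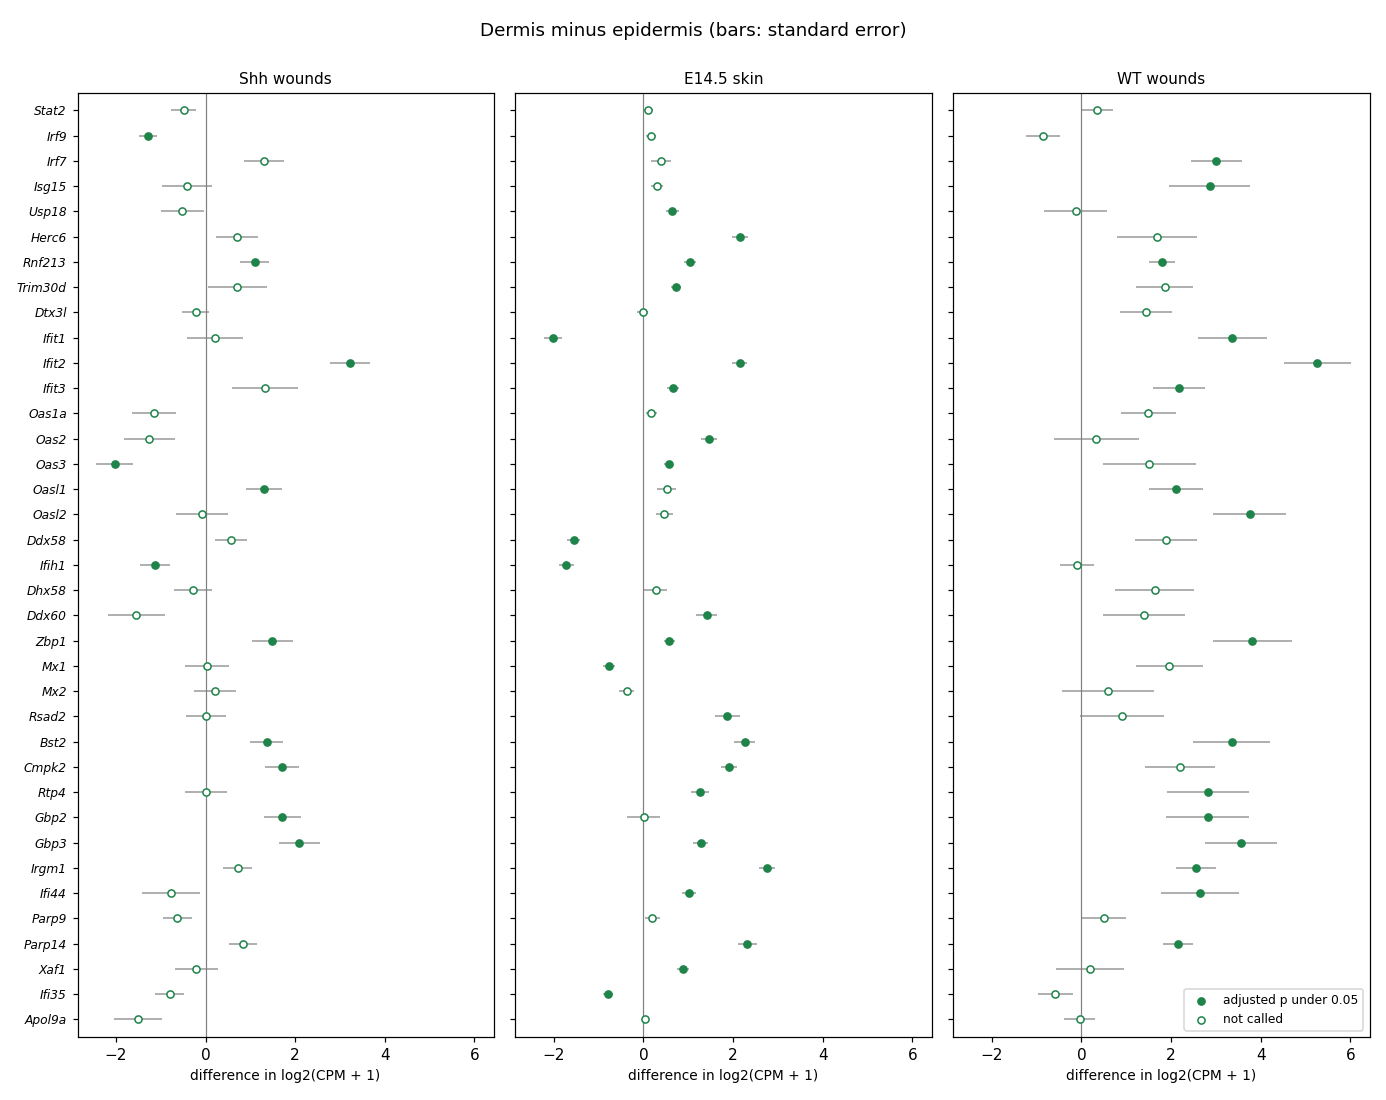
Difference between dermis and epidermis in mean log2(CPM + 1) for the 37 genes in Shh wounds, E14.5 skin and WT wounds; bars are standard errors and filled points are genes with an adjusted p under 0.05 by limma. Shh wounds have 8 filled points right of 0 and 3 left of it, E14.5 skin has 19 right and 5 left, and WT wounds have 16 right and 0 left.

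Receptors of the pathway differed between the embryonic layers as well. Il28ra, the subunit specific to type III interferon, had 0.433 to 2.65 CPM in E14.5 dermis, against 23.1 to 27.5 CPM in E14.5 epidermis (-3.64, adjusted p = 6.8e-07 by limma). Ifngr1 of the type II receptor had 40.6 to 45.5 CPM in E14.5 dermis, against 10.1 to 11.5 CPM in E14.5 epidermis (1.90, adjusted p = 7.3e-08), and Ifnar2 of the type I receptor was higher in E14.5 dermis by 1.22 (adjusted p = 1.4e-06). Of the 6 receptor genes, 5 were called higher in E14.5 dermis than in E14.5 epidermis and 1 lower, beside the same 31.9% of all genes higher and 35.6% lower. Irf1, a transcription factor induced by interferon gamma, was higher in E14.5 dermis than in E14.5 epidermis by 3.58 (adjusted p = 7.2e-08 by limma).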

How the data were processed

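The 20 libraries hold dermis and epidermis of Shh wounds, E14.5 skin and WT wounds. The layers were separated with EDTA before RNA isolation. The authors deposited CPM values per gene and library (reads scaled so that each library adds up to 1000000). The same tables also hold statistics of their own comparisons (fold changes with p-values and FDR), which were not used. The submitters' processing notes name Bowtie, SAMtools and HTSeq and the build NCBIM37; their versions are not given here in any source used. Every deposited CPM value was a whole multiple of 1 read's worth (100% within a tolerance of 0.01), so reads were recovered for edgeR and DESeq2. The 8 deposited tables hold the same CPM, of which 2 were read, and 1 column matching no sample was left out.

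The 37 genes, their grouping by role and the pathway and marker lists were chosen with earlier results of these data known. By the naming rule 22 genes fixed by role are given in every wound library of both layers, with E14.5 values in full, as a range or left out, and other genes are named where they depart from the rest. All comparisons were fitted over all genes with at least 1 read on log2(CPM + 1) with limma 3.58.1 (R 4.3.3), using only the 2 groups compared and letting the spread vary with level; p-values were adjusted by Benjamini-Hochberg over all genes and called at 0.05. Shh against WT wounds is given for the 37 genes without p-values, and its fits are used only for the number of calls over all genes. Promoter windows of 300 bases came from RefSeq. Symbols with more than 1 gene ID took the more abundant one. The fits were tested on simulated data. Alternatives were a pseudocount of 0.5, a minimum mean of 1 CPM, TMM scaling, limma without trend, edgeR 4.0.16, DESeq2 1.42.0, all 3 conditions in the fit, a replicate block between layers, each library left out, and, added after the data were seen, the libraries with few genes left out. Dermis and epidermis with the same number were read as 1 animal or embryonic sample, as their titles share the number; the correlations of their deviations from the group means were 0.38, 0.0040 and 0.12 in Shh wounds, 0.29, 0.07, 0.17 and 0.34 in E14.5 skin and 0.05, 0.04 and 0.11 in WT wounds.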

Additional observations from a re-analysis of the deposited data

Results flagged for a closer look

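Each gene's 4 E14.5 libraries were searched in each layer for a library far from the other 3. Of 74 groups, 8 had one. The rule finds one in about 1 of 20 groups of normally distributed values, which CPM near 0 are not. A group with reads in 1 library alone is always flagged, as for Apol9a, Ifit3 and Oas3. The 8 flags therefore cannot be set against that rate. In dermis, Ifit2 had 32.9 CPM in sample 7, below 53.7 to 57.1 CPM in the others, and Apol9a had 0.107 CPM in sample 3 and 0 in the others. In epidermis, sample 7 was high for Herc6 (1.38 CPM, against 0.638 to 0.673 CPM in the others) and for Ifit1 (6.70 CPM, against 4.53 to 4.78 CPM). Sample 3 was high for Ifit3 (0.192 CPM, others 0) and Gbp3 (0.511 CPM, others 0 to 0.0626 CPM). Sample 4 was high for Oas3 (0.0606 CPM, others 0) and Ddx60 (0.787 CPM, others 0.122 to 0.192 CPM). The values for Apol9a, Ifit3 and Oas3 rest on 1 to 3 reads.

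Ifit1 moved in opposite directions in the layers between E14.5 skin and WT wounds. Every E14.5 library lay below every WT library in dermis (difference -2.88) and above every WT library in epidermis (difference 2.50), so the differences are 5.38 apart on the log2 scale. This gap between the layers was not tested.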

How the results depend on the processing

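Between Shh and WT dermis the number of genes with every Shh library above every WT library was 19, beside 7.74% of all genes. It was 31 within animals WT-9097, WT-9098 and Shh-9101, and 19 to 26 with each library left out. Without the libraries with few genes it was 30, beside 28.1% of all genes. Groups of fewer libraries separate more easily, so a higher count here is not a stronger result. The share of all genes was not counted for the 31 or for the 19 to 26. The epidermal median difference of 2.38 became 2.99 with a pseudocount of 0.5 and 3.10 within the same animals, which leaves fewer libraries. Without 1 library the E14.5 to WT calls in epidermis ran from 13 to 25 (23 without both libraries with few genes), the dermis to epidermis calls from 7 to 18 in Shh wounds (18 without the library with few genes) and from 9 to 14 in WT wounds (0 without 3 libraries with few genes, where 1 epidermal library remains). In these fits without 1 library the share of all genes called ran from 50.9% to 64.2% between E14.5 and WT epidermis. Between the layers it ran from 23.7% to 47.5% in Shh wounds and from 18.0% to 24.7% in WT wounds. The E14.5 layer calls fell to 15 where genes under a mean of 1 CPM were left out, which removes 9 of the called genes from the fit. That fit held 24 of the 37 and called 72.5% of all its genes. With DESeq2 Herc6 was called lower in E14.5 than in WT dermis (-0.91, adjusted p = 0.034 by DESeq2), where limma gave a difference of 0.03, and the adjusted p ran from 0.034 to 0.99 over the alternatives; the cause was not tested. Apart from these, the counts of calls stayed within 1.5 times of those given. TMM scaling moved the median of all genes between E14.5 and WT wounds to 0.26 in dermis and 0.34 in epidermis, against 0.78 and 0.66 for CPM, and the median of the 37 to -2.0 in dermis and -0.81 in epidermis. Genes under 3 reads, and WT wound libraries of 1407498 to 7354990 reads, limit what can be said of low levels.

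With the replicate block that pairs the layers of 1 animal or embryonic sample, 13 genes were called in Shh wounds, 25 in E14.5 skin and 13 in WT wounds; beside the changes given above, it added Oasl1 in E14.5 skin (0.52, adjusted p = 0.042 by limma), and it changed no other call.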

Other observations

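Some interferon-induced genes outside the 37 stood higher in E14.5 skin than in WT wounds, and the following were picked after their values were seen. Ifitm3, a membrane protein that blocks virus entry, had 94.2, 76.9, 65.4 and 67.5 CPM in E14.5 epidermis, against 9.57, 4.08 and 6.56 CPM in WT epidermis (3.36, SE 0.28, adjusted p = 4.2e-05 by limma), while in dermis it had 29.7 to 38.2 CPM in E14.5 skin, against 31.7 to 63.2 CPM in WT wounds (-0.55, adjusted p = 0.10). Its neighbour in function Ifitm2 was higher in E14.5 skin in both layers, by 3.55 in epidermis (adjusted p = 0.00028) and 2.19 in dermis (adjusted p = 0.00072). Slfn9, Pnpt1 and Mov10 were also higher in both layers: Pnpt1, an RNA-degrading enzyme of mitochondria, had 40.6 to 52.3 CPM in E14.5 epidermis, against 0 to 8.16 CPM in WT epidermis (4.10, adjusted p = 0.0011).

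Of the 52 other interferon-induced genes, 25 were called lower and 5 higher in E14.5 than in WT dermis, and of 51 tested in epidermis 14 were called lower and 8 higher, beside 6.63% of all genes lower and 49.4% higher in dermis, and 11.4% lower and 47.7% higher in epidermis, so the shares called higher in this list lie below those of all genes. Of 28 genes of interferon gamma signalling and antigen presentation, 26 were called higher in Shh than in E14.5 dermis (8.08% of all genes were) and 24 in epidermis (19.6% of all genes were). H2-K1, a class I antigen-presenting molecule, was higher in Shh than in E14.5 epidermis by 6.01 (adjusted p = 3.6e-10 by limma).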
